A study of Homo sapiens with 24 samples.

Results

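Genes that copy DNA and drive S phase were followed in sorted cells of 2 human breast cancer lines. The set is a list of 44 genes: loaders and subunits of the replicative helicase, the sliding clamp and its loader, replicative polymerases, enzymes that supply nucleotides, enzymes that finish new strands, chromatin assembly factors and S-phase regulators. Each gene was read from the probe set that names it alone, and the list was compared with all 22395 genes measured by such probe sets. All 44 had a probe set and a mean log2 signal above 2, the lowest being E2F2 at 2.51, so none was left out for low signal.

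The 24 arrays came from SUM159, a mesenchymal-like line that lacks hormone receptors and HER2 amplification, and T47D, a luminal line that carries the oestrogen receptor. Cells of each line received the solvent DMSO or 5 µM ID8, a small molecule known as an inhibitor of DYRK family kinases, for 3 days. They were then sorted by the Aldefluor assay, which marks cells with high aldehyde dehydrogenase activity. Each line gave 4 groups, namely Aldefluor+ and Aldefluor- cells after DMSO and after ID8, with 3 arrays per group from 3 separate experiments (2, 3 and 4 for SUM159, 5, 6 and 7 for T47D). The Aldefluor+ gate was set on cells that also held DEAB, which blocks the assay's reaction, and RNA was amplified before it was hybridised. Each line is 1 model of its tumour type, and the experiments of a line are repeat cultures of the same cells.

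Before a cell divides, the origin recognition complex with CDC6 and CDT1 loads rings of MCM2 to MCM7 onto DNA. In S phase CDC45 and the GINS complex join that ring and turn it into the active helicase, and polymerases held by the PCNA clamp copy the strands. Most of these genes are switched on together near the start of S phase by E2F factors, once the retinoblastoma protein that holds E2F back has been phosphorylated, so their RNA is widely read as a sign of how many cells are cycling. In RNA of a sorted population, fewer cells in S phase and less RNA per cell cannot be told apart.

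The start regions of many, not all, of these genes hold letters that E2F factors are known to read. Promoter sequence from RefSeq (GRCh38.p14, 250 bases before to 50 after the start, which is counted as 0) was matched for 39 of the 44 genes, in 50 windows. POLD3, RPA2, GINS4, MCM4 and MCM5 had no entry. The letters TTTCCCGC, TTTGGCGC, TTTCGCGC and TTTGCCGC were searched on both strands. At least 1 of them stood in 23 of the 39 genes (59.0%), against 3.99% of 27305 genes in the promoter table, and in 24 of 50 windows (48.0%) against 3.31% of 35116 windows. Some genes described at length below, TK1, ORC1 and RRM2 among them, held no match and are not shown. The stretches belong to some of the described genes that did hold a match. The matched letters are in capitals, read 5′ to 3′ on the gene's own strand.
MCM6, chr2:135876502-135876615, minus strand: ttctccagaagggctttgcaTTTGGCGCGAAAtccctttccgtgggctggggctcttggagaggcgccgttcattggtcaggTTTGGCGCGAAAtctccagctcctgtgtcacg
MCM3, chr6:52284889-52284936, minus strand: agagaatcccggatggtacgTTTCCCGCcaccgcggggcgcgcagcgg
GINS2, chr16:85688958-85689005, minus strand: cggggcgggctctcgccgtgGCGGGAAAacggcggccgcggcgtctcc
TYMS, chr18:657594-657641, plus strand: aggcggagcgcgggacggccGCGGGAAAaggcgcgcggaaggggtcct
E2F1, chr20:33686386-33686438, minus strand: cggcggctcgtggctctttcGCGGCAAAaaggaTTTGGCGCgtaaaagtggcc
CLSPN, chr1:35769966-35769993, minus strand: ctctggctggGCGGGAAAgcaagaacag
POLE2, chr14:49688202-49688229, minus strand: tgcggcggtgGCGCCAAAtcgcaaatat
MCM3 held a further match, TTTCGCGC from -4 to 3 on its own strand, outside the stretch shown. In MCM6 each capital run is a pair of matches that overlap on opposite strands, which makes 4 matches in all. E2F1, itself a gene of this set, held 2 matches on opposite strands within its last 53 bases before the start. In CLSPN and POLE2 the match lay within 15 bases of the start.

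**Figure D1:**
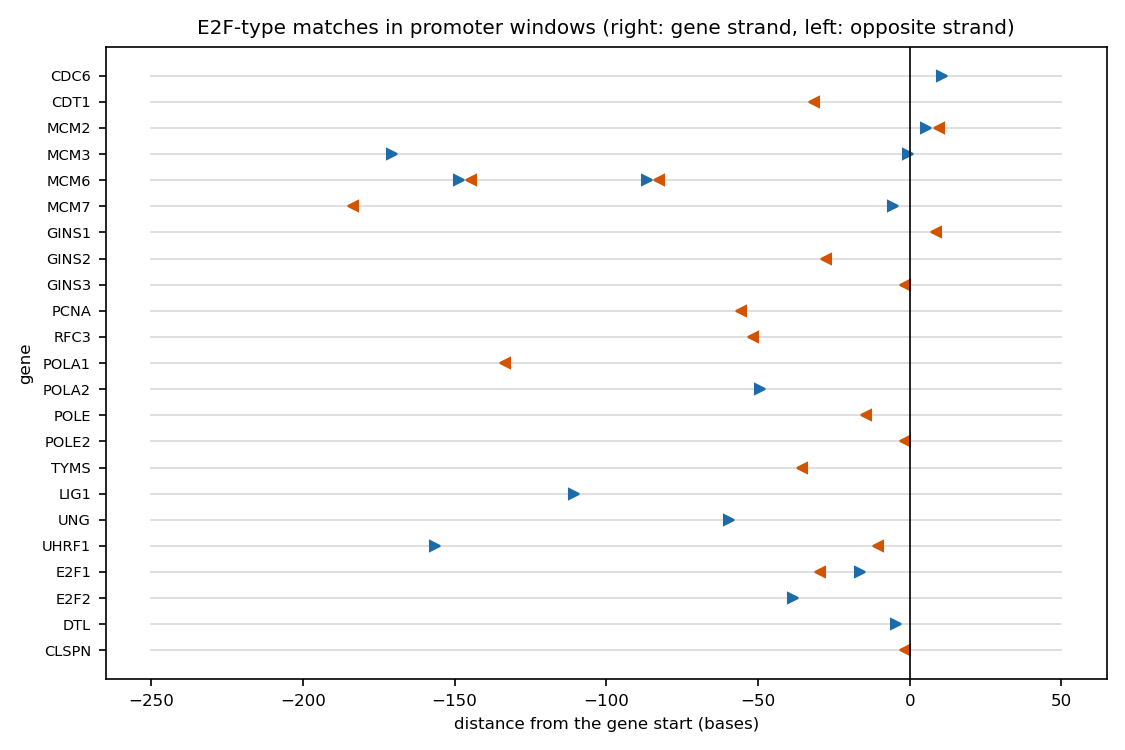
Position of E2F-type matches around the start of each matched gene, in bases from the start (x axis), with 1 row per gene that holds a match; blue marks pointing right are on the gene's strand and orange marks pointing left on the opposite strand. Matches were found in 23 of 39 genes.

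2 other promoter letters were counted in the same windows. CCAAT, the box read by NF-Y, stood in 31 of 50 windows of the set (62.0%) and in 34.61% of all windows. TATAAA stood in 3 of 50 (6.0%) and in 11.53% of all windows. These are letters in a window and say nothing of binding.

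The arrays were first checked against their labels. All 14 luminal markers were higher in T47D and all 11 mesenchymal markers measured were higher in SUM159, and the markers of leukocytes, endothelium and red cells had mean signals between 0.703 and 1.30. After the authors' batch adjustment the largest difference between the lines over all genes was 1.18 (log2), so no level of T47D is set against one of SUM159. ALDH1A1, which codes for a main enzyme of the assay, was 4.84 to 5.17 in SUM159 Aldefluor+ cells with DMSO and 1.98 to 2.45 in Aldefluor- cells, while in T47D the ranges of 3.21 to 3.36 and 2.75 to 3.28 overlapped. The array of SUM159 Aldefluor+ cells with DMSO in experiment 4 had a narrower spread of signals (interquartile range 2.88) than the other 23 (2.97 to 3.12), and results that move without it are given below.

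No gene of the set passed the test in any of the 18 comparisons made. This was limma's moderated test with the experiment as a block, Benjamini-Hochberg adjusted over all 22395 genes, threshold 0.05. Per comparison, 0% to 0.875% of all genes were called. At such rates a list this short would usually hold no call in a comparison, so this absence does not set the replication genes apart. Within the 8 pairs of groups, the 95% interval of a gene's difference reached from 0.203 to 0.68 to each side, with a median of 0.303. The adjusted test goes by p, and so by each gene's spread as well as its difference. The smallest difference called for any gene was between 0.492 and 1.34 over the 8 pairs. Some genes of the set differed by more than the smallest called in their pair and were not called. The values were then read for how the genes stood together. In each line a single group had the lowest mean for most of the set, and it was a different group in each line. These low groups were named from the same values. Genes that are switched on together and read on the same arrays are not independent of each other. The set's counts and medians below are therefore descriptions and carry no test.

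Averaged over the 44 genes, the SUM159 arrays of Aldefluor- cells with DMSO had mean log2 signals of 5.354, 5.398 and 5.391. The other 9 SUM159 arrays lay between 5.415 and 5.601, so the low group did not overlap any other. This group had the lowest mean of its line's 4 groups for 27 of the 44 genes (61.4%), against 23.1% of all genes. In T47D the low group was Aldefluor+ cells with ID8, with 5.399, 5.383 and 5.403, and the other 9 T47D arrays lay between 5.477 and 5.697. It had the lowest of the 4 means for 31 of 44 genes (70.5%), against 28.1% of all genes.

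**Figure D2:**
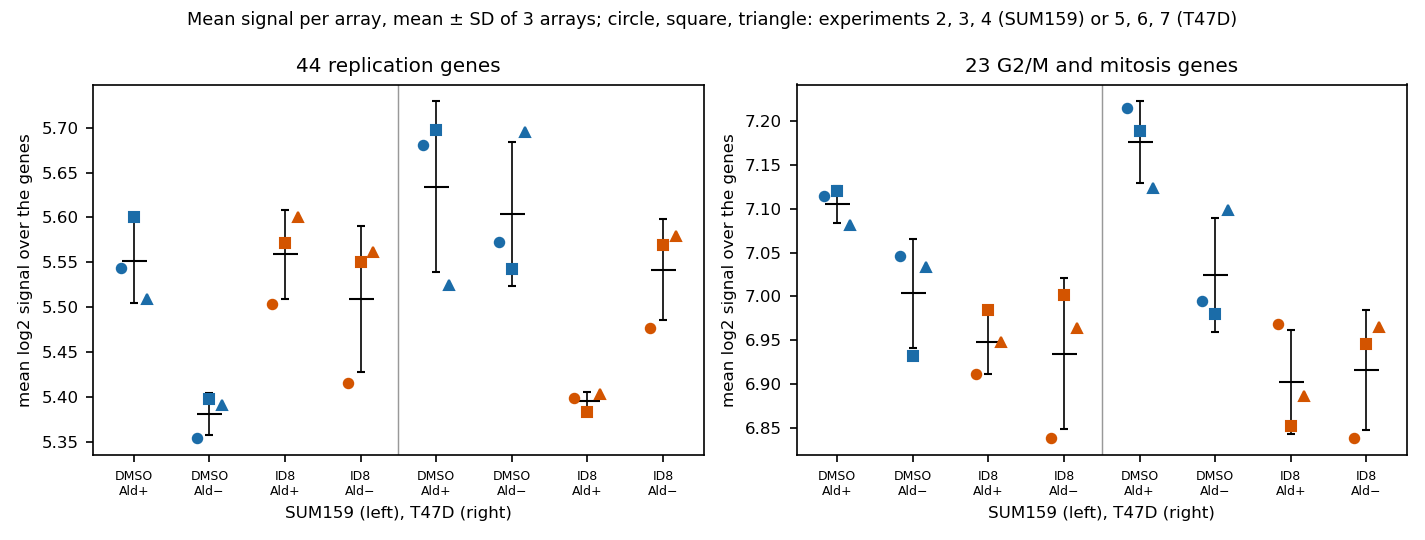
Mean log2 signal (y axis) over the 44 replication genes (left panel) and 23 genes of G2 and mitosis (right panel) for each of the 24 arrays, by line, treatment and Aldefluor fraction (x axis); each point is 1 array (blue DMSO, orange ID8, symbols for experiments) and bars give the mean ± SD of 3 arrays. For the replication genes, SUM159 Aldefluor- cells with DMSO (5.354 to 5.398) and T47D Aldefluor+ cells with ID8 (5.383 to 5.403) lie below every other array of their line.

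Each low group takes part in 2 comparisons, which therefore share its 3 arrays and are not independent. In SUM159 these are Aldefluor+ against Aldefluor- cells with DMSO, and ID8 against DMSO in Aldefluor- cells. In T47D they are ID8 against DMSO in Aldefluor+ cells, and Aldefluor+ against Aldefluor- cells with ID8.

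**Figure D3:**
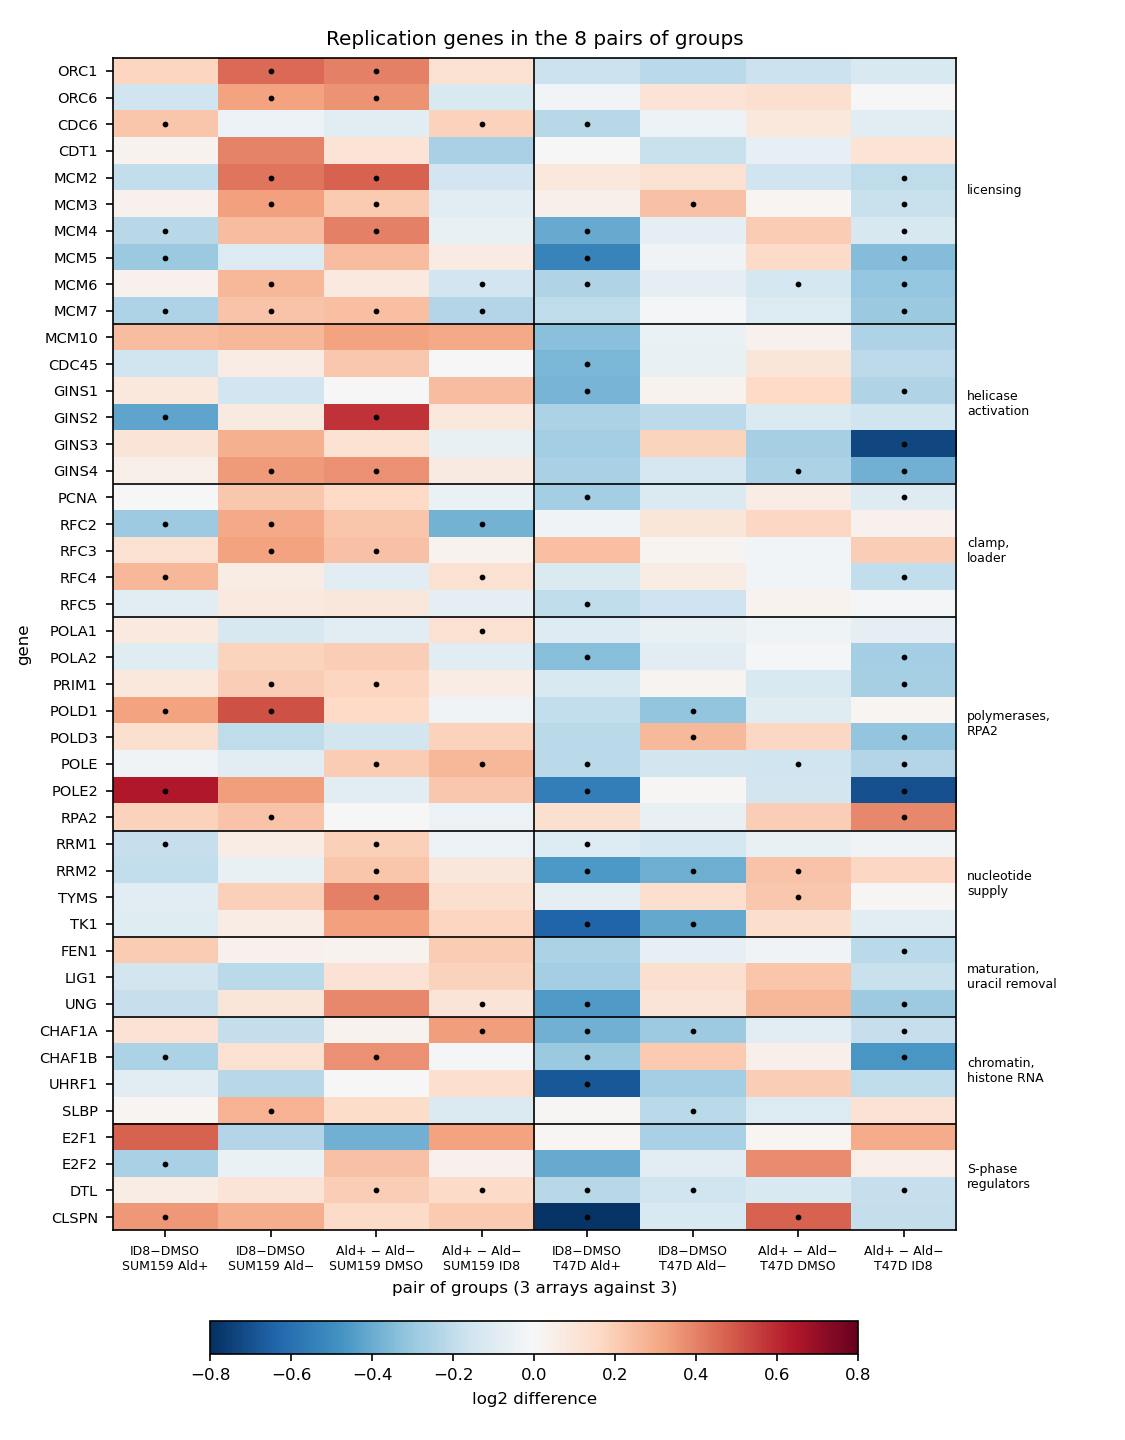
Log2 difference of each replication gene (rows, ordered by role) in the 8 pairs of groups (columns), on a colour scale from -0.8 to 0.8; a dot marks a gene whose 3 arrays of one group do not overlap the 3 of the other. The inner SUM159 columns (ID8 in Aldefluor- cells; fractions under DMSO) are mostly above 0, while the outer T47D columns (ID8 in Aldefluor+ cells; fractions under ID8) are mostly below 0.

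In T47D Aldefluor+ cells, ID8 was compared with DMSO. The median difference of the 44 genes was -0.23 on the log2 scale, against -0.01 over all genes, and 6 of the 44 lay above 0. None was called, where 84 genes (0.375% of all) were. Of the set, 15 genes were lower and 0 higher at an unadjusted p under 0.05, against 5.46% and 5.31% of all genes, and in 20 all 3 ID8 arrays lay below all 3 DMSO arrays, against 10.7% of all genes. The median was negative within each experiment, at -0.318 in experiment 5, -0.334 in experiment 6 and -0.171 in experiment 7.

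CLSPN had the largest difference. It codes for claspin, an adaptor that carries the stalled-fork signal to the kinase CHK1. Its log2 signal was 5.37, 5.25 and 5.26 with DMSO and 4.68, 4.33 and 4.52 with ID8, so the groups stood well apart. The difference was -0.78 ± 0.173 (SE, n = 3 and 3), a 1.72-fold lower level, with a limma adjusted p of 0.0677 at rank 116 of all genes. It missed the threshold here. It passed with only genes of mean 2 or more (limma adjusted p = 0.0343) and with a variance trend and robust fit (0.0295). Leaving out an experiment gave 0.257 to 0.401, and a limma fit without the block gave 0.0111. That fit does not count the degrees of freedom used when experiment means were removed, so here and below its p-values are too small.

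Among the 10 licensing genes, 2 lay above 0 and the median was -0.19. MCM5, a subunit of the helicase ring, read 4.30, 4.41 and 4.10 with DMSO and 3.77, 3.77 and 3.68 with ID8. No array overlapped, and the difference of -0.53 ± 0.135 (SE) had a limma adjusted p of 0.125, or 0.0194 without the block. MCM4, a further subunit, read 6.39, 6.24 and 6.30 against 5.91, 5.94 and 5.87, a difference of -0.40 ± 0.117 (limma adjusted p = 0.185). CDC6 and MCM6 also showed no overlap between the groups. MCM2 and MCM3 had differences of 0.08 and 0.04, so the ring's subunits did not all stand on the same side.

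All 6 genes of helicase activation were below 0, between -0.37 for GINS1 and -0.25 for GINS2, and in CDC45 and GINS1 the groups did not overlap. Of the 5 clamp and loader genes, 1 was above 0. PCNA, the clamp itself, differed by -0.27, and RFC3, a loader subunit, by 0.24, the highest value of the set.

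Of the 8 polymerase and single-strand binding genes, 1 lay above 0, the binding protein RPA2 at 0.13. POLE2, the second subunit of the leading-strand polymerase epsilon, read 5.47, 5.79 and 5.58 with DMSO and 5.15, 4.88 and 5.14 with ID8. Its difference was -0.55 ± 0.182 (SE; limma adjusted p = 0.248), with no overlap between the groups. POLE, the catalytic subunit, and POLA2, of the primase complex, also had no overlap.

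All 4 nucleotide supply genes were below 0. TK1, the thymidine kinase of the salvage route, read 6.21, 6.35 and 5.98 with DMSO and 5.66, 5.49 and 5.48 with ID8. The difference was -0.64 ± 0.177 (SE), 1.56-fold lower, with a limma adjusted p of 0.161, or 0.0351 without the block. RRM2, the regulated subunit of ribonucleotide reductase, read 5.17, 5.00 and 5.04 against 4.74, 4.63 and 4.47, a difference of -0.46 ± 0.157 (limma adjusted p = 0.277). Both groups were separate for TK1, RRM2 and RRM1, whereas TYMS, which makes thymidylate by the other route, differed by -0.07.

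In the remaining roles some genes had separate groups and others did not. UHRF1, which brings maintenance methylation to new DNA, read 3.87, 3.62 and 3.78 with DMSO and 3.08, 2.99 and 3.18 with ID8, a difference of -0.68 ± 0.213 (SE; limma adjusted p = 0.222). CHAF1A and CHAF1B, subunits of the histone chaperone CAF-1, and UNG, which removes uracil, also did not overlap. SLBP, which binds histone messages, differed by 0.01 and E2F1 by 0.01. DTL, the adaptor that marks CDT1 for destruction, was the other S-phase regulator without overlap.

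**Figure D4:**
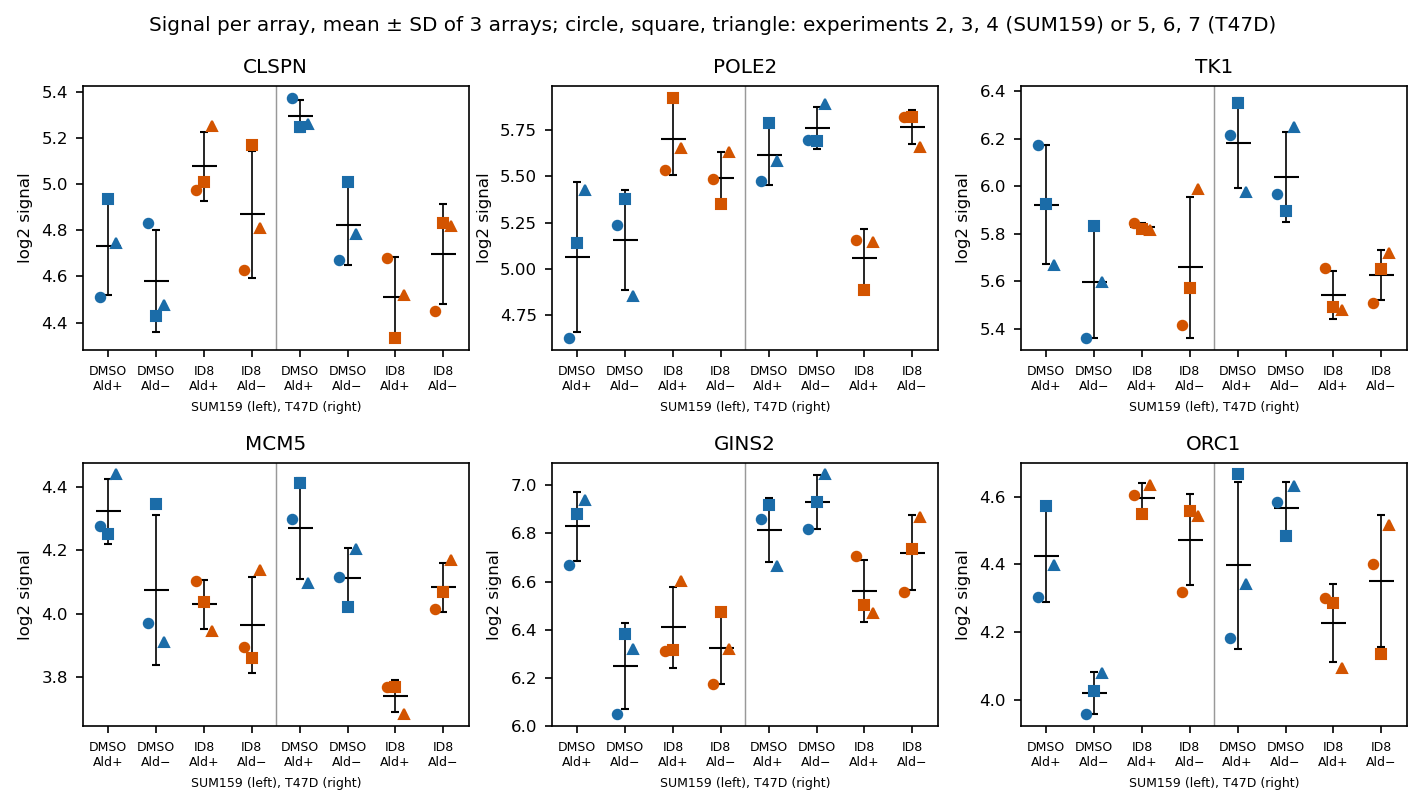
Log2 signal (y axis) of CLSPN, POLE2, TK1, MCM5, GINS2 and ORC1 on each array, by group (x axis); blue points are DMSO and orange points ID8, and bars give the mean ± SD of 3 arrays. In T47D Aldefluor+ cells the ID8 points of CLSPN, POLE2, TK1 and MCM5 lie below the DMSO points, and in SUM159 Aldefluor- cells the DMSO points of ORC1 lie below the ID8 points.

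Genes of cell division also read lower with ID8 in T47D Aldefluor+ cells. The mean of 23 genes of G2 and mitosis was 7.124 to 7.215 on the DMSO arrays and 6.852 to 6.968 on the ID8 arrays, and 0 of the 23 differences lay above 0 (median -0.24). A lower mitotic median was not particular to this pair. With ID8 it was -0.12 in T47D Aldefluor-, -0.16 in SUM159 Aldefluor+ and -0.05 in SUM159 Aldefluor- cells. In T47D Aldefluor+ cells, RNA per collected cell overlapped, at 19.1, 18.3 and 20.4 pg with DMSO and 12.3, 18.9 and 20.8 pg with ID8. The part of either measure in the replication genes' values was not tested.

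In T47D Aldefluor- cells, ID8 and DMSO differed less for the set: the median was -0.06 and 15 of 44 were above 0. None was called, as against 4 genes (0.0179%) of all, and at an unadjusted p under 0.05 the set had 1 higher and 2 lower, with 3.40% and 3.21% of all genes. The arrays did not overlap in 2 genes on the higher side and 6 on the lower, against 8.38% and 8.15% of all genes, and TK1 and RRM2 were among the 6. TK1 read 5.97, 5.89 and 6.25 with DMSO and 5.51, 5.65 and 5.72 with ID8 (difference -0.41 ± 0.177, limma adjusted p = 0.748). RRM2 differed by -0.39 ± 0.157 and MCM3 by 0.24 ± 0.0955, both with an adjusted p of 0.711, and POLD3, an accessory subunit of polymerase delta, was highest at 0.26. CLSPN and MCM5 differed by -0.12 and -0.03.

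Averaged over both T47D fractions, the effect of ID8 had a median of -0.17 and 8 of 44 genes lay above 0. Again 0 were called, against 113 genes (0.505%) of all, and 16 of the set were lower and 0 higher at an unadjusted p under 0.05, against 5.44% and 5.41% of all genes. TK1 was at -0.53 ± 0.125 (limma adjusted p = 0.0854), RRM2 at -0.42 ± 0.111 (0.124) and CLSPN at -0.45 ± 0.123 (0.136). TK1 passed with only genes of mean 2 or more (limma adjusted p = 0.0401), with a variance trend (0.027) and without the block (0.0128). Without the block RRM2 (0.0228), CLSPN (0.0321) and CHAF1A passed too, which made 4 of the set, against 562 genes (2.51%) of all. MCM3 was highest at 0.14.

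Whether ID8 acted on the T47D fractions to a different degree was tested as the difference of the 2 effects. The set's median was -0.17 and 0 of 44 were called, as were 0 of all genes (0%). Without adjustment, 0 genes of the set were higher and 6 lower at p under 0.05, against 2.84% and 3.09% of all. CLSPN had -0.66 ± 0.245, MCM5 -0.50 ± 0.191 and UNG -0.56 ± 0.224, with limma adjusted p of 0.766 to 0.775. The effect is therefore not shown to differ between the fractions for any gene of the set.

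Aldefluor+ cells of T47D were then compared with Aldefluor- cells. With DMSO the set was near the rest: the median was 0.02, 23 of 44 were above 0 and 0 were called, against 34 genes (0.152%) of all. Only 1 gene of the set was higher and 0 were lower at an unadjusted p under 0.05, against 4.48% of all genes in each direction, and the arrays of 3 were all higher and of 3 all lower, against 9.41% and 9.65%. The 1 gene was CLSPN, at 5.37, 5.25 and 5.26 in Aldefluor+ and 4.67, 5.01 and 4.79 in Aldefluor- cells (0.47 ± 0.173, limma adjusted p = 0.419). The experiments went both ways, with member medians of 0.07, 0.17 and -0.16, and the set's median was -0.015 without experiment 5 and -0.0524 without experiment 6. E2F2 stood at 0.38 ± 0.213 and GINS4 at -0.26 ± 0.146, and GINS3 was lowest at -0.27.

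With ID8 the same contrast of T47D fractions had a median of -0.18 for the set, and 10 of 44 genes were above 0. None was called, against 82 genes (0.366%) of all. The set had 9 lower genes and 1 higher at an unadjusted p under 0.05, against 4.44% and 4.49% of all genes, and in 21 genes all Aldefluor+ arrays lay below all Aldefluor- arrays, against 10.1% of all genes. The median was -0.121, -0.178 and -0.193 in experiments 5, 6 and 7.

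All of MCM2 to MCM7 were among those 21 genes. MCM6 read 6.91, 7.07 and 6.92 in Aldefluor+ cells and 7.23, 7.24 and 7.37 in Aldefluor- cells, a difference of -0.31 ± 0.0975 (SE; limma adjusted p = 0.276). MCM5 differed by -0.35 ± 0.135 (0.451) and MCM3 by -0.18 ± 0.0955 (0.629). The 6 subunits of the ring were thus on 1 side here, though none passed the test.

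POLE2 had the smallest p of the set in that contrast. It read 5.15, 4.88 and 5.14 in Aldefluor+ and 5.82, 5.82 and 5.66 in Aldefluor- cells, a difference of -0.71 ± 0.182 (SE), 1.63-fold lower, with a limma adjusted p of 0.15, or 0.0391 without the block. GINS3, of the GINS complex, had the lowest value at -0.73, with arrays of 2.79, 3.15 and 3.36 against 3.88, 3.92 and 3.69. CHAF1B read 4.82, 4.76 and 4.77 against 5.15, 5.24 and 5.37 (-0.47 ± 0.149, limma adjusted p = 0.287). RPA2 stood on the other side, at 6.38, 6.50 and 6.42 against 5.86, 6.13 and 6.15, and had the highest value at 0.39. The 4 nucleotide supply genes showed no separate groups, with a median of -0.01. Leaving out experiment 6 brought the set's median from -0.18 to -0.124.

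Averaged over both treatments, the T47D fractions differed by a median of -0.05, and 0 of 44 were called, against 196 genes (0.875%) of all. The set had 1 higher gene and 7 lower at an unadjusted p under 0.05, against 5.55% and 5.51% of all genes. POLE2 was at -0.42 ± 0.128 (limma adjusted p = 0.167), MCM6 at -0.23 ± 0.0689 (0.175) and GINS4 at -0.32 ± 0.103 (0.205). MCM6 passed with a variance trend (0.0381).

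The SUM159 fractions were compared in the same way, first with DMSO, where the T47D fractions had a set median of 0.02. Aldefluor+ cells had a median of 0.19 over the set, against -0.01 over all genes, and 37 of 44 genes were above 0. None was called, against 5 genes (0.0223%) of all. At an unadjusted p under 0.05 the set had 10 higher and 0 lower, against 3.62% and 4.33% of all genes, and in 16 genes all Aldefluor+ arrays lay above all Aldefluor- arrays, against 7.92% of all genes. The median was 0.264, 0.155 and 0.191 in experiments 2, 3 and 4, and 0.221 without the array of narrow spread.

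GINS2, of the GINS complex, had the smallest p. It read 6.67, 6.88 and 6.94 in Aldefluor+ and 6.05, 6.38 and 6.32 in Aldefluor- cells, a difference of 0.58 ± 0.124 (SE, n = 3 and 3), or 1.49-fold, with a limma adjusted p of 0.177, or 0.046 without the block. All 6 genes of helicase activation were above 0. GINS4 had no overlap either, while GINS1 differed by 0.01.

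Of the 10 licensing genes 9 were above 0, and 6 had separate groups: ORC1, ORC6, MCM2, MCM3, MCM4 and MCM7. MCM4 read 6.28, 6.08 and 6.21 in Aldefluor+ and 5.63, 5.92 and 5.79 in Aldefluor- cells, a difference of 0.41 ± 0.117 (limma adjusted p = 0.398). ORC1, the cell-cycle regulated subunit of the origin complex, read 4.30, 4.57 and 4.40 against 3.96, 4.03 and 4.08 (0.40 ± 0.136, 0.467). CDC6 was the exception at -0.09. The 6 licensing genes with separate groups did not include CDT1, whose arrays overlapped widely.

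All 4 nucleotide supply genes were above 0, with a median of 0.27. TYMS read 8.21, 8.03 and 8.27 in Aldefluor+ and 7.65, 7.88 and 7.77 in Aldefluor- cells, a difference of 0.40 ± 0.127 (SE; limma adjusted p = 0.462). RRM1 and RRM2 also did not overlap. RFC3, PRIM1, POLE, CHAF1B and DTL complete the 16 genes with separate groups. E2F1 had the lowest value of the set, at -0.39: its Aldefluor+ arrays read 4.32, 3.73 and 3.38 and its Aldefluor- arrays 4.12, 4.07 and 4.41.

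**Figure D5:**
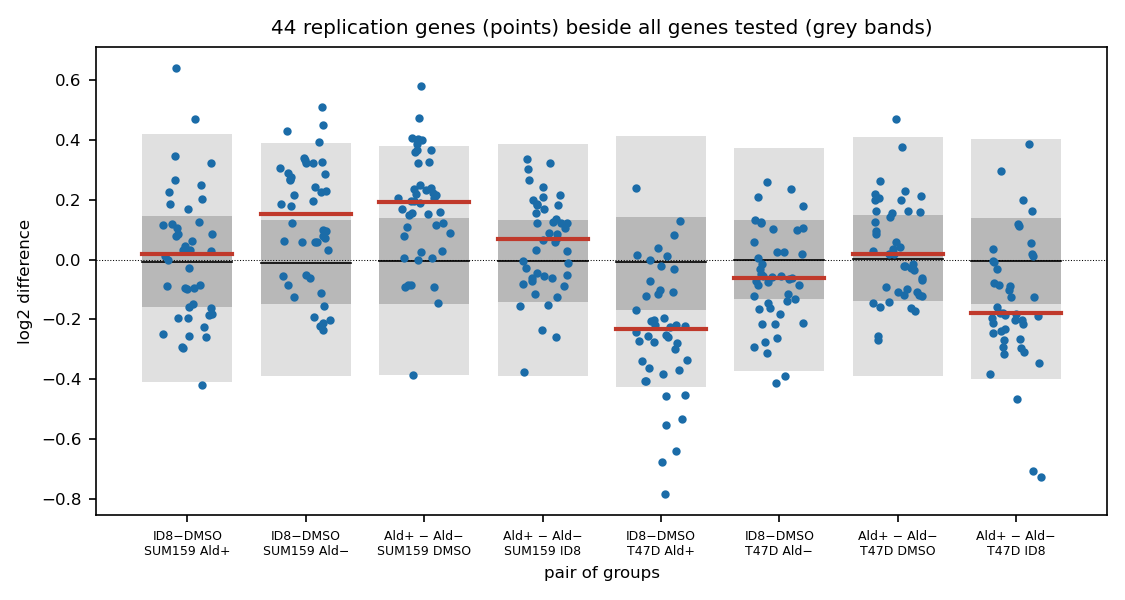
Log2 difference (y axis) of each of the 44 genes in the 8 pairs of groups (x axis), as points, with a red line at their median; grey bands span the middle 90% and the middle 50% of all 22395 genes and a black line marks the median of all genes. The set's median is 0.19 in the SUM159 fraction contrast under DMSO, and -0.23 in the T47D Aldefluor+ contrast of ID8 with DMSO.

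ID8 was compared with DMSO in SUM159 Aldefluor- cells, where the DMSO arrays are those just described. The set's median was 0.15 and 32 of 44 genes were above 0. None was called, against 62 genes (0.277%) of all. At an unadjusted p under 0.05 there were 9 higher and 0 lower, against 3.73% and 4.30% of all genes, and in 13 genes all ID8 arrays lay above all DMSO arrays, against 8.88% of all genes. The 3 experiments gave medians of 0.0919, 0.188 and 0.168.

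MCM3 had the smallest p there. It read 6.14, 6.26 and 6.28 with DMSO and 6.45, 6.65 and 6.57 with ID8, a difference of 0.33 ± 0.0955 (SE; limma adjusted p = 0.267). ORC1 read 3.96, 4.03 and 4.08 against 4.32, 4.56 and 4.54, a difference of 0.45 ± 0.136 (0.295). POLD1, the catalytic subunit of polymerase delta, read 3.58, 3.79 and 3.61 against 4.12, 4.12 and 4.26, the highest value of the set at 0.51 ± 0.165 (0.342). The groups did not overlap in any of these 3 genes. ORC6, MCM2, MCM6, MCM7, GINS4, RFC2, RFC3, PRIM1, RPA2 and SLBP were the others without overlap.

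By role, 8 of 10 licensing genes and 5 of 5 clamp and loader genes were above 0, with medians of 0.30 and 0.21. Chromatin assembly and S-phase regulator genes lay around 0, with medians of -0.04 and 0.02. E2F1 again had the lowest value, -0.24. RNA per collected cell on the 3 low arrays was 11.6, 9.08 and 11 pg, against 12.7 to 13 pg in Aldefluor+ cells with DMSO and 10.2, 14.1 and 13.7 pg in Aldefluor- cells with ID8. Its part in these values was not tested.

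In SUM159 Aldefluor+ cells ID8 and DMSO gave no common direction. The median was 0.02, 23 of 44 genes were above 0 and 0 were called, against 54 genes (0.241%) of all. Before adjustment 2 were higher and 2 lower at p under 0.05, against 4.88% and 5.43% of all genes, and the arrays did not overlap in 5 on the higher side and 8 on the lower side, against 9.31% and 9.37%. POLE2 read 4.63, 5.14 and 5.43 with DMSO and 5.54, 5.92 and 5.65 with ID8, a difference of 0.64 ± 0.182 (SE), or 1.56-fold (limma adjusted p = 0.189). GINS2 stood opposite, at 6.67, 6.88 and 6.94 against 6.31, 6.32 and 6.60 (-0.42 ± 0.124, 0.212), and RFC4 at 0.27 ± 0.113 (0.42). The median was -0.0533 without the array of narrow spread and -0.0584 without experiment 4, so its sign rests on that experiment.

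All 4 nucleotide supply genes were below 0 in that comparison, between -0.19 for RRM2 and -0.09 for TYMS. Among the MCM ring, MCM4, MCM5 and MCM7 had separate groups on the lower side, and CDC6, which loads the ring, on the higher side. MCM5 differed by -0.30 ± 0.135 (limma adjusted p = 0.467).

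Averaged over the SUM159 fractions, ID8 had a median effect of 0.07 on the set and 0 of 44 were called, against 154 genes (0.688%) of all; 7 were higher and 1 lower at an unadjusted p under 0.05, against 5.26% and 6.06% of all genes. POLE2 was at 0.49 ± 0.128 (limma adjusted p = 0.109), POLD1 at 0.42 ± 0.117 (0.135) and ORC1 at 0.31 ± 0.0963 (0.188), and MCM5 was lowest at -0.20. POLE2 passed without the array of narrow spread (0.59, adjusted p = 0.0364), with a variance trend (0.0457) and without the block (0.0305). Under these settings 0.706%, 1.33% and 2.99% of all genes were called. Dropping 1 experiment gave POLE2 a limma adjusted p of 0.205 to 0.362. POLD1 passed without the block (0.0287).

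SUM159 fractions with ID8 differed by a median of 0.07 (0.031 without experiment 2), with 26 of 44 genes above 0 and 0 called, against 45 genes (0.201%) of all. Before adjustment 2 were higher and 1 lower at p under 0.05, against 3.38% and 4.14% of all genes, and the arrays did not overlap in 7 on the higher side and 3 on the lower side, against 7.98% and 9.01%. POLE was at 0.27 ± 0.113 and CHAF1A at 0.34 ± 0.144, both with a limma adjusted p of 0.592, and RFC2, a loader subunit, at -0.38 ± 0.169 (0.635). The 10 licensing genes were on the other side than with DMSO, with 3 above 0 and a median of -0.11. Averaged over treatments, the fractions had a median of 0.11 with 39 of 44 genes above 0 and 0 called, against 49 genes (0.219%) of all. There 8 were higher and 0 lower at an unadjusted p under 0.05, against 3.69% and 4.77% of all genes, and GINS2 led at 0.33 ± 0.088 (limma adjusted p = 0.186).

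The test of whether the fractions of SUM159 differed more with one treatment than with the other called 0 of 44, and 1 gene (0.00447%) of all. The set's median was -0.19, with 0 higher and 7 lower at an unadjusted p under 0.05, against 3.47% and 3.59% of all genes. MCM4 had -0.47 ± 0.166, GINS2 -0.49 ± 0.176 and MCM7 -0.47 ± 0.176, with limma adjusted p of 0.611 to 0.619. MCM2 was lowest at -0.62 and E2F1 highest at 0.71.

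The lines were compared through the size of their effects, which uses no level of one line against the other. For ID8 in Aldefluor+ cells, T47D minus SUM159, the set's median was -0.24 and 0 of 44 were called, against 74 genes (0.330%) of all. At an unadjusted p under 0.05 there were 0 higher and 8 lower, against 5.90% and 5.41% of all genes. POLE2 and CLSPN came nearest to the threshold. POLE2 had 0.64 in SUM159 and -0.55 in T47D, which differ by -1.19 ± 0.257 (SE; limma adjusted p = 0.062). CLSPN had 0.34 and -0.78, which differ by -1.13 ± 0.245 (0.0632).

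Both of these passed with only genes of mean 2 or more (0.0299 for POLE2, 0.031 for CLSPN), with a variance trend (0.0164 and 0.0237) and without the block (0.0105 and 0.00922). POLE2 also passed without experiment 4 (-1.40, adjusted p = 0.0261) and without the array of narrow spread (-1.41, 0.0186), on which POLE2 read 5.43, the highest of its group. Leaving out other experiments gave POLE2 adjusted p of 0.163 to 0.277. For CLSPN, leaving out any 1 experiment gave a limma adjusted p of 0.13 to 0.204.

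For ID8 in Aldefluor- cells, T47D minus SUM159, the median was -0.21 and 0 of 44 were called, against 15 genes (0.0670%) of all. POLD1 differed by -0.82 ± 0.234 (limma adjusted p = 0.385) and ORC1 by -0.67 ± 0.193 (0.4); 1 gene of the set was higher and 5 lower at an unadjusted p under 0.05, against 3.54% and 3.18% of all genes. For the fractions with DMSO the median was -0.18, 0 were called, against 15 genes (0.0670%) of all, and 0 were higher and 6 lower at an unadjusted p under 0.05, against 4.15% and 3.59%. GINS2 had -0.70 ± 0.176 there (0.256). For the fractions with ID8 the median was -0.23, 0 were called, against 53 genes (0.237%) of all, and 0 were higher and 10 lower at an unadjusted p under 0.05, against 4.83% and 4.29%. POLE2 had -0.92 ± 0.257 there (0.21).

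Medians were also taken over genes with and without an E2F-type match. For ID8 in T47D Aldefluor+ cells the median was -0.24 over the 23 genes with a match and -0.20 over the 16 without. For SUM159 fractions with DMSO it was 0.16 with a match and 0.20 without. For ID8 in SUM159 Aldefluor- cells the values were 0.18 and 0.10, and for T47D fractions with ID8 -0.184 and -0.104, so in each of these 4 pairs both medians lay on the same side of 0. In SUM159 Aldefluor+ cells, where the whole set was near 0, ID8 gave 0.027 with a match and -0.035 without. These are descriptions of lists and carry no test.

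Other lists of the pathway were read in the same fit. Of 30 other replication genes, 0 were called in any of the 8 pairs, against 0.0179% to 0.375% of all genes per pair. For ID8 in T47D Aldefluor+ cells 8 lay above 0 (median -0.19). There limma put 1 higher and 5 lower at an unadjusted p under 0.05, against 5.31% and 5.46% of all genes. GMNN, which codes for geminin, the inhibitor of CDT1, read 8.06, 8.04 and 8.08 with DMSO and 7.66, 7.68 and 7.69 with ID8 there, a difference of -0.38 ± 0.0966 (SE; limma adjusted p = 0.122). In SUM159 GMNN read 7.65, 7.68 and 7.70 in Aldefluor- cells with DMSO, below the other 3 groups of that line, which lay between 7.86 and 8.10. Among the groups given here, GMNN thus read lowest where most of the replication genes did. DUT stood on the other side for ID8 in T47D Aldefluor+ cells, at 0.61, the highest of the 30 genes.

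Of 28 E2F and RB pathway genes, 1 was called in the 8 pairs, with ID8 in SUM159 Aldefluor- cells, where 62 genes (0.277%) of all were called. This was E2F7, an E2F that represses its targets. It read 6.19, 5.87 and 6.17 with DMSO and 5.18, 5.22 and 5.34 with ID8, and fell by 0.83 ± 0.165 on the log2 scale (limma adjusted p = 0.0465). Averaged over the SUM159 fractions it fell by 0.76 ± 0.116 (0.00375). The call in Aldefluor- cells was lost without any 1 of the 3 experiments (0.268 to 0.433), with all probe sets tested (0.108) and with the line's 12 arrays alone (0.0971), and the averaged call was lost without experiment 2 (0.125) or 3 (0.0561). In SUM159 Aldefluor+ cells E2F7 read 6.22, 6.27 and 5.92 against 5.33, 5.49 and 5.52 (-0.69, adjusted p = 0.111), and in T47D Aldefluor+ cells 5.95, 6.05 and 5.51 against 5.26, 4.91 and 5.10 (-0.75, 0.067). It differed by -0.22 in T47D Aldefluor- cells (0.911). The difference of E2F7 was thus below 0 in all 4 comparisons of ID8 with DMSO, of which 1 was called. It also passed in T47D Aldefluor+ cells without the block (0.00787), with only genes of mean 2 or more (0.0323), with quantile scaling (0.036) and with a variance trend (0.021), and in SUM159 Aldefluor+ cells without the block (0.0155) and with a variance trend (0.0359). The replication set had medians of 0.15 in SUM159 Aldefluor- and -0.23 in T47D Aldefluor+ cells.

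The cyclins and the brake of this step did not pass. CCNE1, the cyclin that partners CDK2 at the start of S phase, differed by 0.76 ± 0.237 with ID8 in SUM159 Aldefluor- cells (limma adjusted p = 0.326) and by 0.81 ± 0.237 between T47D fractions with ID8 (0.234). CCNE2 lay between -0.14 and 0.16 and CDKN1A, which codes for the inhibitor p21, between -0.44 and 0.44 over the 8 pairs. E2F8 differed by -0.48 ± 0.163 and MKI67, the proliferation marker, by -0.46 ± 0.132 with ID8 in T47D Aldefluor+ cells (0.269 and 0.183).

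The 14 checkpoint and recombination genes, 23 genes of G2 and mitosis and 7 histone genes measured held 0 calls in the 8 pairs. Per pair, 0.0179% to 0.375% of all genes were called, so lists this short would rarely hold a call. For ID8 in T47D Aldefluor+ cells, 2 of 14 checkpoint genes were above 0 (median -0.14) and 1 of 7 histone genes (median -0.30). There limma put 4 checkpoint, 11 mitotic and 1 histone gene lower, and 0 of these 3 lists higher, at an unadjusted p under 0.05, against 5.46% and 5.31% of all genes. For SUM159 fractions with DMSO, 10 of 14 checkpoint genes were above 0 (median 0.15), 15 of 23 mitotic genes (median 0.10) and 6 of 7 histone genes (median 0.35), with 2, 4 and 1 higher and 0, 1 and 0 lower at an unadjusted p under 0.05, against 3.62% and 4.33% of all genes. For ID8 in SUM159 Aldefluor- cells the mitotic genes lay on the other side than the replication genes, with 6 of 23 above 0 and a median of -0.05. In SUM159 Aldefluor+ cells 3 of 23 were above 0 with ID8. There limma put 0 higher and 4 lower at an unadjusted p under 0.05, against 4.88% and 5.43% of all genes. Between T47D fractions with DMSO, 18 of 23 were above 0 (median 0.16). Of these 23 genes, 5 were higher and 0 lower at that p, against 4.48% of all genes in each direction.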

How the data were processed

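The deposited values are log2 signals of an Affymetrix Human Gene ST array plate, made by the authors with RMA and adjusted for experiment and processing batches with ComBat, per the design text and the submitters' processing notes. Tool versions, and the batches and covariates ComBat was given, were not given in the sources used here. Of 53617 probe sets, 23871 had 1 gene symbol, 1842 several and 27904 none, by the platform's annotation; 22569 symbols were updated through RefSeq (GRCh38.p14). For 632 genes with several probe sets, that of highest mean was used.

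Limma 3.58.1 (R 4.3.3; lmFit, eBayes) fitted the 24 arrays together: 8 group means, plus the experiment number as a block nested in the line, because ComBat had removed experiment means. The labels mark each number as a separate experiment, which pairs the samples; the SD over genes of an experiment's mean around its line's was at most 0.0226, and deviations of arrays from the same experiment correlated between -0.408 and -0.266, as values with those means removed do. P-values were Benjamini-Hochberg adjusted over 22395 genes. The procedure was tested on simulated data, with planted changes larger than any difference of the set in the 8 pairs. That test does not gauge recovery of changes as small as those of the set. Genes described were, per comparison, the 3 members of smallest p and the highest and lowest, plus 8 fixed non-members; other members with array values (MCM4, POLE2, RRM2 and UHRF1 for ID8 in T47D Aldefluor+ cells, for example) were chosen after their values were seen. The members, gene lists and tests were chosen with earlier results of these data known. Alternatives left out the block, each experiment, 1 array or dim genes, or changed the scaling, probe set choice, arrays fitted or variance model. The number of arrays limits precision. The p-values measure the spread between cultures of 1 line.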

Additional observations from a re-analysis of the deposited data

Results flagged for a closer look

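The fraction difference of ALDH1A1, the gene used to check the Aldefluor labels, differed between the lines. T47D minus SUM159 was -2.594 with DMSO (limma adjusted p = 2.41e-04) and -3.051 with ID8 (2.34e-05). No gene of the replication set met a rule of this kind.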

How the results depend on the processing

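Of 96 counts of replication genes called in the 8 pairs under an alternative, 91 were 0. Without the replicate block, 1 was called for SUM159 fractions with DMSO (GINS2; 0.393% of all genes), 4 for ID8 in T47D Aldefluor+ cells (MCM4, MCM5, TK1 and CLSPN; 2.37%) and 1 for T47D fractions with ID8 (POLE2; 1.45%). The limma fit without the block counts too many degrees of freedom, so its p-values are too small and it calls too many genes. For ID8 in T47D Aldefluor+ cells, 1 (CLSPN) was called with only genes of mean 2 or more (1.15% of those tested) and 1 (CLSPN) with a variance trend and robust fit (0.728%). Of 128 such counts in the other 10 comparisons 116 were 0. The medians kept their sign in 92 of 96 cases, but many of these could not move. Leaving out the block or dim genes, or changing the probe set choice, arrays fitted or variance model, left every median at its main value. For ID8 in SUM159 Aldefluor+ cells, the main 0.0202 ranged from -0.0584 (without experiment 4) to 0.0351 when an experiment was left out and was -0.0533 without the array of narrow spread. For T47D fractions with DMSO, the main 0.018 was -0.015 without experiment 5 and -0.0524 without experiment 6. For T47D fractions with ID8, leaving out experiments gave -0.18 to -0.124. The 672 values of named replication genes kept their direction, and 25 passed the threshold. These genes were picked by smallest p in these data, and many of their values could not move either. Centring or quantile scaling moved the median of all genes by at most 0.0262. The causes were not tested.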
